A study of Mus musculus with 10 samples.

Results

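B2m, the light chain shared by all classical MHC class I molecules, was followed in mouse cerebral cortex together with 8 genes of the class I presentation pathway, H2-D1, H2-K1, Tap1, Tap2, Tapbp, Psmb8, Psmb9 and Irf1. These are 9 of the 12393 genes that the arrays read with a probe set of their own. Every probe set annotated to one of the 9 genes was taken, which gave 25 probe sets for a single member and 3 that are shared with another H2 gene and are reported apart. B2m was selected on its lower level on the arrays labelled null, so that the difference between labels is a description for all members. Its intervals reflect the spread between arrays, and neither they nor its counts test that choice.

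RNA came from the cerebral cortex of 10 male mice at 6 months of age, 5 of them labelled *p97FE65* wild type and the other 5 *p97FE65* null, with 1 Affymetrix MOE430A 2.0 array for each mouse. FE65 (Apbb1) is an adaptor protein that binds the amyloid precursor protein, and the null mice lack its full-length isoform while the gene itself is not removed. The line was made in R1 embryonic stem cells, and mice of both labels come from 10 generations of crossing to C57Bl/6J. The study still found sequence of the stem cell strain in null mice at the genes Gprc5b and Homer2. These lie on either side of FE65 on chromosome 7. No treatment is given in the labels, and the methods describe the mice as littermate pairs without saying which arrays form a pair. Values are GC-RMA expression on the log2 scale, where 1 unit is a 2-fold change, and array medians lay between 3.01 and 3.14. Any 2 arrays correlated over all probe sets between 0.994 and 0.999.

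The direction of a difference depends on the labels, and here the labels oppose the direction in the study's tables. A probe set of Gprc5b, a receptor gene on chromosome 7, read 7.60, 7.08, 7.74, 7.07 and 7.45 with the wild type label and 6.92, 4.71, 6.60, 6.05 and 6.53 with the null label. It was 2.35-fold lower with the null label, and the tables place it higher in null mice by the same 2.35-fold. The study's RT-PCR over the region of this probe set also found more of it in null forebrain. Which genotype stands behind a label could not be settled, so "wild type" and "null" below name the label only, and every "lower" or "higher" would turn around if the labels were exchanged.

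MHC class I molecules display short peptides from inside the cell on its surface, where T cells and some innate receptors read them. The proteasome cuts proteins into peptides, and its interferon-inducible catalytic subunits Psmb8 and Psmb9 replace the standard ones in the immunoproteasome. The Tap1 and Tap2 transporter carries the peptides into the endoplasmic reticulum, tapasin (Tapbp) holds the transporter next to an empty class I molecule, and the finished molecule is a heavy chain, in C57Bl/6J mice H2-D1 or H2-K1, bound to B2m. Irf1 is a transcription factor that interferon gamma induces and that drives many of these genes. In the brain, class I is expressed in microglia and endothelium and also in some neurons, where it has been tied to synapse remodelling.

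The promoters of the light chain and of both heavy chains are shown because their products form the class I molecule itself and their levels are set side by side, mouse by mouse, below. Each line is the 250 bases before the transcript start in RefSeq (GRCm38.p6), 5′ to 3′ on the gene's strand. B2m lies at chr2:122147437-122147686 on the plus strand, H2-D1 at chr17:35262844-35263093 on the plus strand, and the first of 2 H2-K1 windows at chr17:34000348-34000597 on the minus strand. Capitals mark an interferon regulatory factor core (AANNGAAA) or a kappa B motif (GGGANNNNCC), where N is any base and both strands were searched.
B2m: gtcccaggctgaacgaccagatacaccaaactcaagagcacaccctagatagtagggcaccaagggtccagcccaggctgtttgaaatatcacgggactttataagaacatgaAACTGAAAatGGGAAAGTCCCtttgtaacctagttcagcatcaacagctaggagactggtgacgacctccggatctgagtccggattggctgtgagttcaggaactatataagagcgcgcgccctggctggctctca
H2-D1: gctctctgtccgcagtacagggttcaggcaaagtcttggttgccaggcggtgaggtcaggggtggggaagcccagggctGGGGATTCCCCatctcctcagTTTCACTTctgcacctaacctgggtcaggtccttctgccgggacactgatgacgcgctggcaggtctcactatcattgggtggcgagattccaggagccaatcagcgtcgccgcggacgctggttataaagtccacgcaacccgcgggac
H2-K1: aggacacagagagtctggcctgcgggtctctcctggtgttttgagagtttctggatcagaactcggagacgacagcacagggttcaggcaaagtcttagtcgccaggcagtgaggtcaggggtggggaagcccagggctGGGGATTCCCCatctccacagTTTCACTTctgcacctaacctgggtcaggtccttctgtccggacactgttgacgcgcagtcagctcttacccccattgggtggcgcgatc

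In all 3 promoters an interferon regulatory factor core and a kappa B motif lay close to each other, and in both heavy chain promoters the kappa B motif stood upstream of the core. The core was AACTGAAA at 137 bases before the start in B2m and TTTCACTT, its other strand, at 150 bases in H2-D1 and 90 bases in H2-K1. The kappa B matches at 127 and 126 bases in B2m overlap each other, as do those at 171 and 170 bases in H2-D1 and at 111 and 110 bases in H2-K1. The heavy chain windows of 300 bases, which reach 50 bases past the start, aligned over 227 bases with 206 identical (90.7%).

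These motifs are short and common. Of 32851 RefSeq promoter windows of the same length, 23.9% held the core, 20.7% the kappa B motif and 8.30% the STAT motif TTCNNNGAA. Among the other members, the STAT motif was found once in the first Irf1 window (TTCCCCGAA at 90 bases) and once in the Psmb8 window (TTCCCAGAA at 97 bases), and the first Irf1 window also held a kappa B match at 13 bases. The windows of Tap1 and Psmb9 share 275 bases on opposite strands, and neither held any of the 3 motifs, nor did that of Tapbp. Of the 9 members, 8 had a window, and Tap2 had none.

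B2m was read by 2 probe sets. On 1449289_a_at, the higher of them, the arrays labelled wild type read 8.99, 9.41, 9.25, 9.13 and 8.98, and the null ones read 8.83, 8.70, 8.80, 8.54 and 9.24. Of the null arrays, 4 lay below every wild type array, and null 5 alone lay inside the wild type range. The means were 9.15 ± 0.18 and 8.82 ± 0.26 (SD, n = 5 each), a difference of -0.33 (SE 0.13, 95% interval -0.61 to -0.04), or 1.26-fold lower on the null arrays. Leaving out 1 array at a time gave differences between -0.43, without null 5, and -0.26.

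The second B2m probe set did not show a difference of that size. On 1452428_a_at the wild type arrays read 6.88, 6.64, 6.75, 6.80 and 6.68 and the null arrays 6.76, 6.40, 6.74, 6.79 and 6.58. Of the null arrays 3 lay within the wild type range and 2 below it, and the difference was -0.09 (SE 0.08, 95% interval -0.27 to 0.08), or -0.03 without null 2. Nor did the 2 probe sets rank the mice alike. Wild type 2 was the highest wild type array on the first and the lowest on the second, and after subtraction of the label means they had a Pearson r of -0.33 over the 10 arrays (exact permutation p = 0.43) and a Spearman rho of -0.35 (exact p = 0.38). Without wild type 2 and null 5, the arrays farthest from the B2m median, r was -0.05. In tissue RNA, fewer cells of a type and less RNA per cell cannot be told apart for any gene here.

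**Figure D1:**
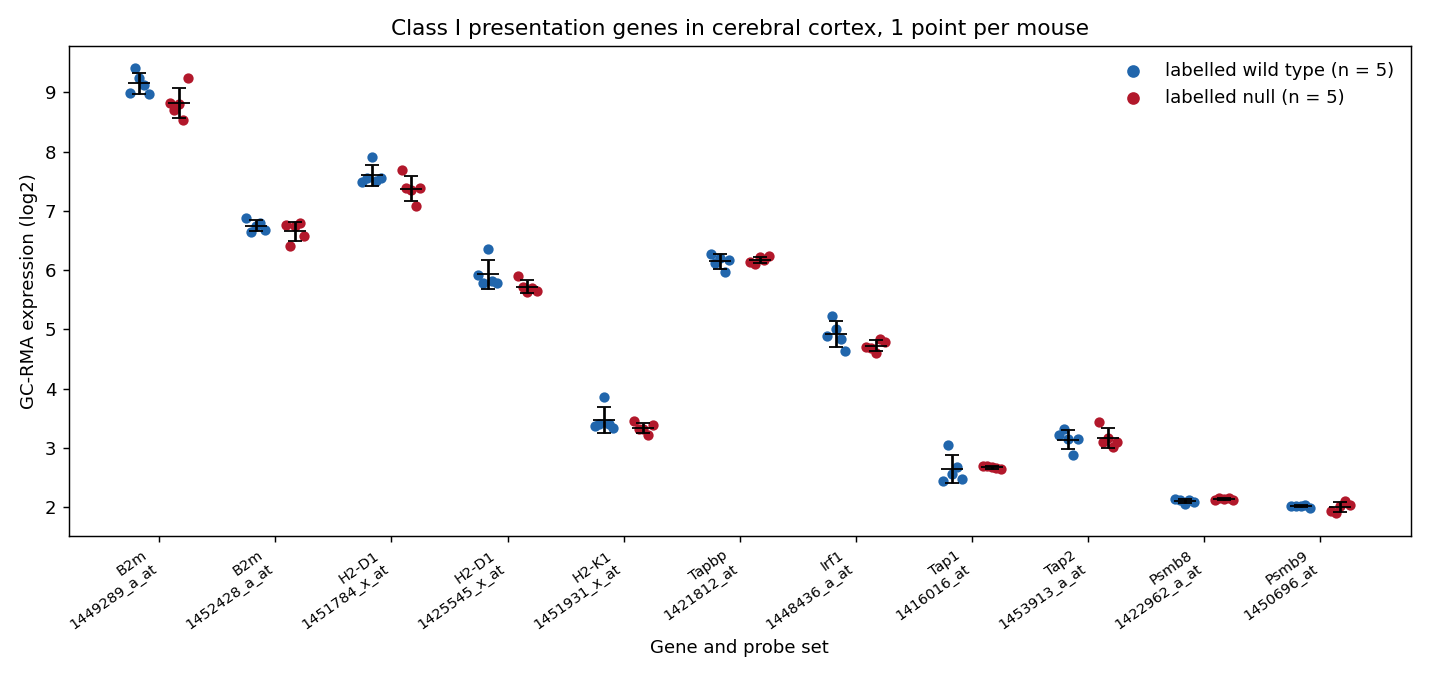
GC-RMA expression (log2) of each member gene by label, with each mouse as a point and the mean and SD as bars, for both B2m probe sets, the H2-D1 probe sets with a mean of at least 5 and the highest probe set of each other gene; levels are not comparable between probe sets. On B2m 1449289_a_at, 4 null points lie below all wild type points and null 5 lies at 9.24, and on both H2-D1 probe sets and on H2-K1 a single wild type point, wild type 3, lies above the others.

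The heavy chain genes were read by 9 probe sets for H2-D1 and 4 for H2-K1, of which 7 and 4 carry the suffix _x_at, which marks probes that also match other transcripts. Because class I heavy chain genes are near copies of each other, a signal on these probe sets cannot be assigned to H2-D1 or H2-K1 with certainty. Only 2 of the 13, both H2-D1, had a mean of at least 5. On 1451784_x_at the wild type arrays read 7.49, 7.56, 7.91, 7.50 and 7.55 and the null arrays 7.69, 7.39, 7.35, 7.08 and 7.38. All null arrays except null 1 lay below the wild type range, and the difference of the means, 7.60 ± 0.18 and 7.38 ± 0.22, was -0.22 (SE 0.11, 95% interval -0.47 to 0.03).

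On H2-D1 probe set 1425545_x_at the wild type arrays read 5.92, 5.78, 6.35, 5.81 and 5.79 and the null arrays 5.90, 5.72, 5.63, 5.70 and 5.64. Here again null 1 was the one null array inside the wild type range, and wild type 3 stood apart at the top of the wild type arrays. The difference was -0.21 (SE 0.11, 95% interval -0.45 to 0.03), and -0.11 without wild type 3. On 1451683_x_at, with a mean of 2.76, the wild type arrays read 3.01, 2.86, 3.0, 2.89 and 2.69 and the null arrays 2.70, 2.40, 2.65, 2.67 and 2.75, a difference of -0.26 (SE 0.08). Here the groups overlapped through wild type 5, which lay below null 1 and null 5. The other 6 H2-D1 probe sets had means of 2.30 or less and differences between -0.11 and 0.03, so that the 9 probe sets of this gene held 6 negative and 3 positive differences.

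All 4 H2-K1 probe sets had means under 5. On 1451931_x_at the wild type arrays read 3.37, 3.40, 3.86, 3.40 and 3.34 and the null arrays 3.45, 3.31, 3.32, 3.21 and 3.38. Apart from wild type 3, the wild type arrays (3.34 to 3.40) lay within the wider range of the null arrays (3.21 to 3.45), with a difference of -0.14 (SE 0.10) over all arrays and -0.05 without wild type 3. The other 3 probe sets differed by -0.03 to 0.02.

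Wild type 3, singled out after its values were seen, was the highest of the 10 arrays on 4 of the 13 heavy chain probe sets (30.8%), as against 8.25% of all probe sets and 10.6% of those with a mean of at least 5. Wild type 2 was the highest on 3 of the 13 (23.1%), near its share of 25.5% of all probe sets. On its 4 probe sets wild type 3 stood above the next array by 0.43 (1425545_x_at), 0.41 (H2-K1 1451931_x_at), 0.27 (1426324_at) and 0.22 (1451784_x_at). Of these, 1426324_at and 1451931_x_at had means under 5. The 4 probe sets are not independent, since they can read the same transcripts. On the 12 probe sets of the other 7 members wild type 3 was the highest array on 0, and its B2m value of 9.25 on 1449289_a_at was second to wild type 2 and 0.01 above null 5. The summed level of the lymphocyte markers was 63.1 on wild type 3, the highest array, against 62.0 on wild type 2, and that of the endothelial markers was 558 against 553 on wild type 2. The lymphocyte sum, on the linear scale, is weighted to Ms4a1, which read 5.32 on wild type 3, its highest array. The other 6 of the 7 measured lymphocyte markers had means under 5, and Ptprc read 1.86 on wild type 3, the lowest of the 10 arrays. The oligodendrocyte sum stood further apart on this array, at 26616 against 23422 on wild type 2, and the striatal sum was 197 against 194. The part of these markers in the heavy chain values was not tested.

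**Figure D2:**
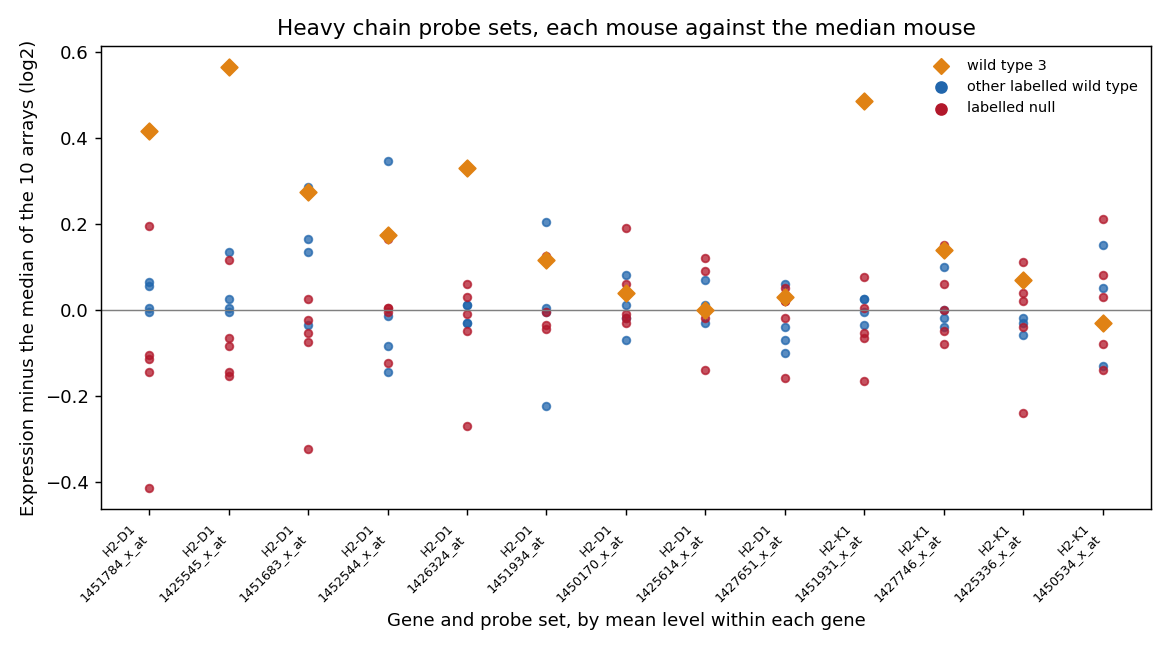
The 13 H2-D1 and H2-K1 probe sets, ordered by mean level within each gene, with each array's log2 value minus the median of the 10 arrays on the vertical axis; diamonds are wild type 3, circles the other arrays by label. Wild type 3 is the highest array on 1451784_x_at, 1425545_x_at, 1426324_at and 1451931_x_at and lies among the others on the remaining 9.

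Of the members that load peptides, only tapasin was well above the array medians. Tapbp 1421812_at read 6.28, 6.12, 6.20, 5.96 and 6.17 on the wild type arrays and 6.13, 6.11, 6.22, 6.17 and 6.24 on the null arrays. The null arrays lay wholly within the wild type range, and the difference was 0.03 (SE 0.06, 95% interval -0.10 to 0.16), with either sign when single arrays were left out (-0.02 to 0.06). The second Tapbp probe set, 1450378_at, differed by 0.01 (SE 0.11).

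The transporter and the immunoproteasome subunits read close to or below the array medians in both groups. The 4 Tap1 probe sets had means from 1.18 to 2.66 and differences from -0.08 to 0.04. Tap1 1416016_at, the highest of them, ran from 2.44 to 3.04 on the wild type arrays and from 2.64 to 2.70 on the null arrays, and its high value was that of wild type 2. Tap2 had a single probe set with a mean of 3.15 and a difference of 0.03 (SE 0.10).

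Psmb8 ran from 2.05 to 2.13 on the wild type arrays and from 2.11 to 2.15 on the null arrays, a difference of 0.03 (SE 0.03). Psmb9 ran from 1.99 to 2.04 and from 1.89 to 2.10, a difference of -0.02 (SE 0.05). At these levels a GC-RMA value is close to what the method gives a probe set without specific signal, so a difference in transcript abundance may not have been detectable on these arrays.

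Irf1, the transcription factor of the set, lay just under a mean of 5. Probe set 1448436_a_at read 4.89, 5.22, 5.01, 4.84 and 4.64 on the wild type arrays and 4.71, 4.69, 4.60, 4.83 and 4.79 on the null arrays. Of the wild type arrays 4 lay above every null array, and wild type 5 lay among them. The difference was -0.19 (SE 0.10, 95% interval -0.41 to 0.02), and -0.12 without wild type 2.

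**Figure D3:**
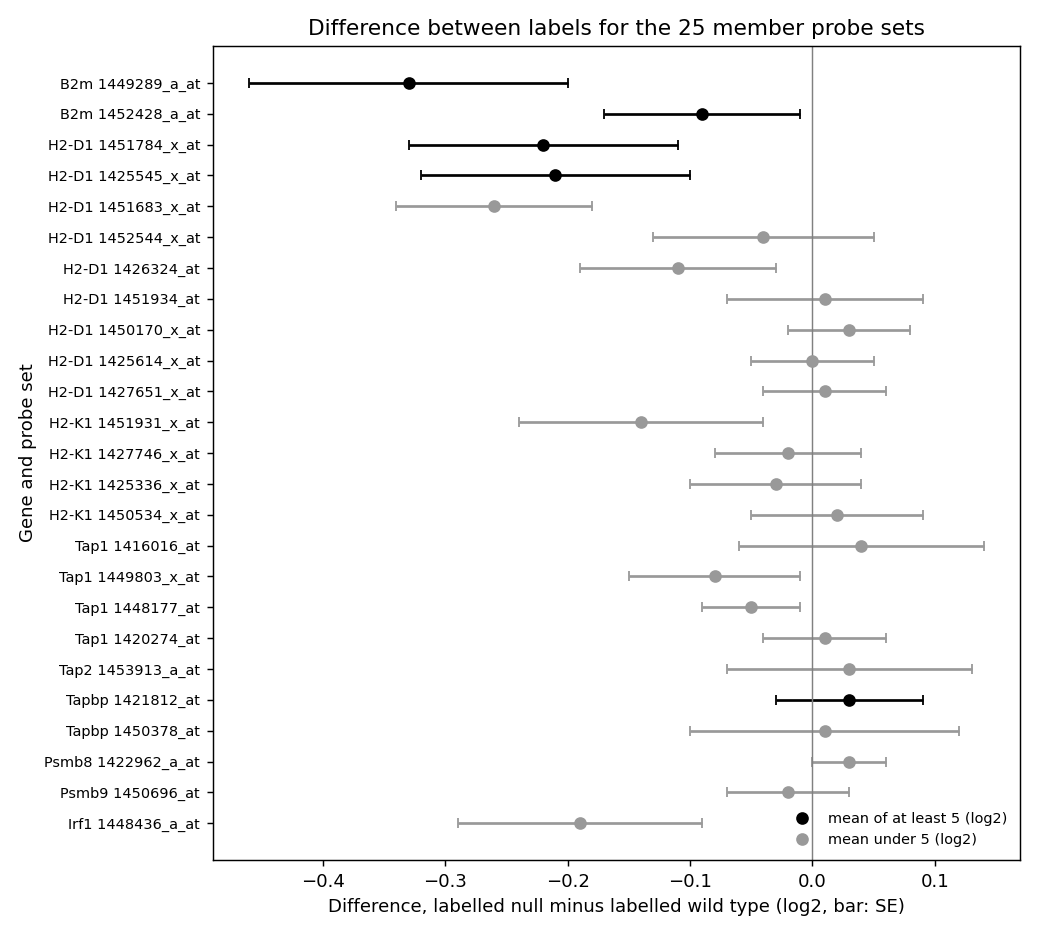
Null minus wild type difference between the labels (log2, horizontal axis) for the 25 member probe sets, with bars of 1 SE; black marks probe sets with a mean of at least 5, grey those under 5. The values run from -0.33 for B2m 1449289_a_at to 0.04 for Tap1 1416016_at, and 18 of the 25 lie within 0.1 of 0.

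Over the whole set, 15 of the 25 differences were negative and 10 positive, with a median of -0.022 against 0 over all 22626 probe sets tested, and 18 were within 0.1 of 0. In the limma fit, 2 member probe sets, B2m 1449289_a_at and H2-D1 1451683_x_at, were lower at an unadjusted p under 0.05, and 0 were higher. Over all probe sets 2.43% were lower and 1.24% higher by the same rule, and since the members were chosen on this contrast nothing is read from their count. B2m itself left this count with a replicate block and when wild type 2, wild type 3, null 2, null 3 or null 4 was left out. After Benjamini-Hochberg adjustment 0% of all probe sets passed in limma, which called 830 at an unadjusted p under 0.05, and the methods' t-test with the same adjustment also called 0, with 767 at an unadjusted p under 0.05. No member had groups that did not overlap, which 0.331% of all probe sets had with null below and 0.292% with null above. Of the member probe sets 80% had a mean under 5, against 65.4% of all, and by the highest probe set of each gene 3 of the 9 members (B2m, H2-D1 and Tapbp) reached a mean of 5.

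The 3 shared probe sets added no further difference. The one for H2-K1 and H2-D1, 1424948_x_at, had the widest spread of them, from 3.51 to 3.90 on the wild type arrays and from 3.12 to 4.01 on the null arrays, a difference of -0.15 (SE 0.16). Its highest arrays were null 1 and wild type 1, and wild type 3 stood at 3.65. The one for H2-Q5 and H2-K1 differed by 0.12 (SE 0.08) and the one for Gm38417, H2-Q2 and H2-D1 by 0.03 (SE 0.09).

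The rest of the pathway was described by gene lists, with each gene read by its highest probe set. Of 20 measured genes of other class I steps (25 listed), 1 was lower and 1 higher in limma at an unadjusted p under 0.05. Over all probe sets 2.43% were lower and 1.24% higher by this rule. The lists were chosen with earlier results known, so nothing is read from their counts. The median difference of this list was 0.005. The lower gene was Npepps, a cytosolic aminopeptidase, at 8.30, 7.98, 8.16, 7.99 and 8.04 on the wild type arrays and 7.78, 7.71, 7.55, 7.65 and 8.21 on the null arrays (difference -0.31, SE 0.12). As for B2m, its groups overlapped only through null 5.

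The higher gene was Psmb10, the third inducible proteasome subunit, whose difference of 0.19 (SE 0.08) ran opposite to that of B2m. It read 4.57, 4.19, 4.27, 4.44 and 4.38 on the wild type arrays and 4.55, 4.48, 4.48, 4.56 and 4.71 on the null arrays, with wild type 1 inside the null range. Tapbpl, a tapasin relative that edits peptides, and H13, the signal peptide peptidase, each differed by 0.05 with SEs of 0.05 and 0.04. Calr, Canx and Pdia3, the chaperones of class I folding, differed by 0.27 (SE 0.35), -0.05 (SE 0.10) and -0.04 (SE 0.11).

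The next list held 11 measured genes (19 listed) whose products are other partners of B2m or class I-like chains. In limma 2 were higher and 0 lower at an unadjusted p under 0.05. Over all probe sets these shares were 1.24% and 2.43%. The median difference of the list was 0.019, and 9 genes had means under 5. Hfe, which acts in iron sensing, differed by 0.11 (SE 0.04), and Mr1, which presents vitamin B metabolites, by 0.13 (SE 0.05). Both were dim, with means of 2.78 and 3.68 on the wild type arrays. H2-Q2 differed by 0.08 (SE 0.04) and Fcgrt, the neonatal Fc receptor chain, by -0.08 (SE 0.07).

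Most of the interferon genes were too dim for a common shift to be judged, and their differences had both signs. Of 37 measured (42 listed), 1 was lower and 0 higher in limma at an unadjusted p under 0.05. Over all probe sets these shares were 2.43% and 1.24%. The median difference of the list was -0.015 with 22 negative and 15 positive values, and 31 genes had means under 5. The lower gene was Ifit2, an interferon-induced inhibitor of translation, with a difference of -0.24 (SE 0.09) at a wild type mean of 2.30. Gbp2 (-0.14, SE 0.09, and -0.06 without wild type 3), Stat2 (-0.13, SE 0.06, and -0.07 without null 5) and Eif2ak2 (0.12, SE 0.07) followed.

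Among 11 class II genes (14 listed) and 17 class I receptor and synapse genes (22 listed), 0 passed at an unadjusted p under 0.05 in limma. Over all probe sets 2.43% were lower and 1.24% higher by this rule. The class II median was 0.055, with H2-DMa at 0.10 (SE 0.08), Ciita at 0.09 (SE 0.05), Rfxank at 0.08 (SE 0.06) and H2-Oa at 0.05 (SE 0.04). The receptor and synapse median was 0.019, with Nptx1, a neuronal pentraxin, at -0.16 (SE 0.13, and -0.08 without null 4), Cd247 at 0.06 (SE 0.05), Cd3e at 0.05 (SE 0.04) and Klrd1 at 0.04 (SE 0.05). In all 5 lists 0 genes passed after adjustment over all probe sets.

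Differences among mice of 1 label were not used to choose the members, so the relation of every other probe set to B2m 1449289_a_at was fitted with limma with the label as a term. At an adjusted p under 0.05 it called 288 of 22625 probe sets (1.27%), of which 277 rose with B2m, and at an unadjusted p under 0.05 it called 16.1%. None of the 24 other member probe sets passed either threshold, and the lowest adjusted p among them was 0.446. The number of calls changed with the arrays and with the scaling. The 288 calls became 9 when each array was centred on its median, and 0 under quantile normalization, without null 5, with the other B2m probe set or with the first principal component as a term. Probe sets with a mean of at least 5 had a median r with B2m of 0.40, against 0.13 for all.

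The first principal component of the values minus label means held 38.9% of their variance, and its highest scores were those of wild type 2 and null 5. These are also the arrays with the most B2m for their label, and null 5 is the array through which the labels overlap on B2m. The summed level of 11 microglial markers was 3084 on null 5, the highest of all arrays, and 2699 on wild type 2, the second. A sum on the linear scale is weighted to its brightest genes. Ctss, the brightest of that list, read 10.96 on null 5, its highest array, while Tyrobp read 6.27 there, the lowest of the null arrays. The astrocyte sum was also highest on null 5, at 2894, and the sum of the cortical neuron markers was highest on wild type 2, at 330. The part of any of these in the B2m values was not tested.

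Within labels the members had r with B2m between -0.56 and 0.55 over 10 arrays. Their median was 0.17, with 17 positive and 7 negative values. Over all probe sets the median was 0.13 and 59.5% were positive, so nothing particular to the members is read from these values. The pooled r also joins labels that looked different. Wild type 2, the wild type array with the most B2m, was also the highest wild type array on 10 of the 24 (41.7%, against 42.7% of all other probe sets), among them Irf1 and all 4 Tap1 probe sets. Null 5, the null array with the most B2m, was the highest null array on 2 of the 24 (8.33%, against 30.3%), neither of them Irf1 or Tap1. Among all 10 arrays null 5 was the highest on 26.9% of probe sets with a mean of at least 5 and on 14.8% of all. Most member probe sets had means under 5, and the shares were not matched for level. With 5 arrays for each label no correlation is given within one, and the difference between labels in this relation was not tested. For the brightest H2-D1 probe set, 1451784_x_at, r was 0.39 (exact permutation p = 0.315) and rho was 0.55 (exact p = 0.145). For H2-K1 1451931_x_at r was 0.41 (exact p = 0.206) and rho was 0.80 (exact p = 0.0192), with an adjusted p of 0.601 in limma over all probe sets. Both of these heavy chain probe sets, which can read the same transcripts, rose to r = 0.83 when null 5 and wild type 2 were left out. The remaining heavy chain probe sets then had r from -0.49 (1425614_x_at) to 0.62 (1425545_x_at). With these 2 arrays left out, the fit called 0 probe sets, members included.

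Irf1 had r = 0.50 with B2m (exact p = 0.11) and rho = 0.40 (exact p = 0.311), and without the same 2 arrays r was 0.10. Tapbp 1421812_at had r = 0.07 (exact p = 0.834) and rho = 0.10 (exact p = 0.842), and r = -0.16 without them. The highest r of a member was 0.55, for Tap1 1449803_x_at (exact p = 0.106, rho = 0.30 with exact p = 0.462), whose value without the 2 arrays was 0.15. The relations were computed for 24 member and 3 shared probe sets, and no exact p of r was under 0.05.

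**Figure D4:**
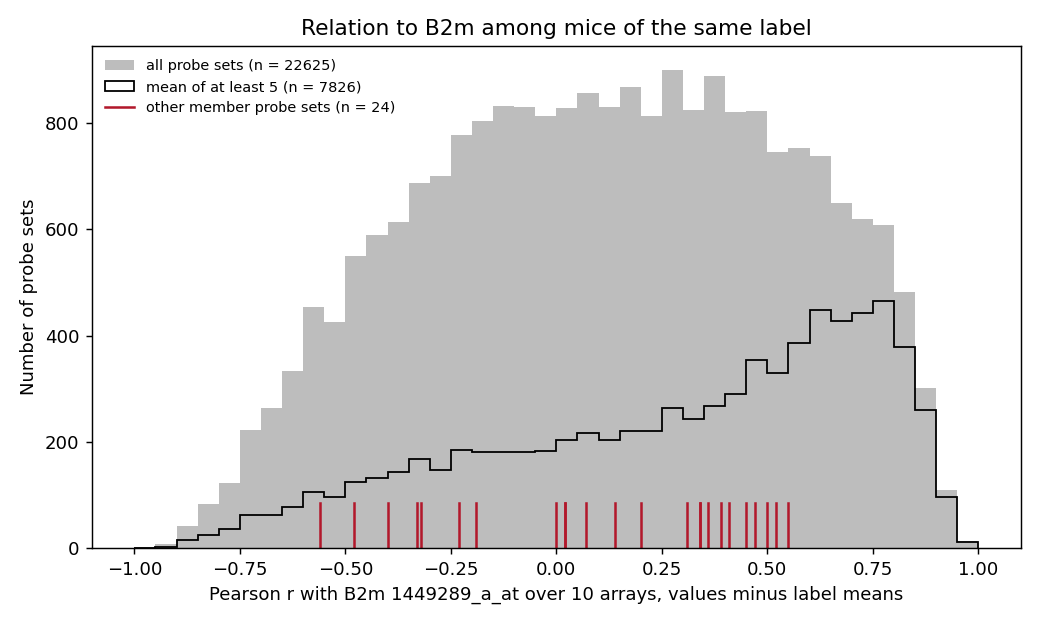
Number of probe sets (vertical axis) by Pearson r with B2m 1449289_a_at over the 10 arrays after subtraction of the label means (horizontal axis), for all probe sets in grey and for those with a mean of at least 5 as an outline; red lines mark the 24 other member probe sets. The members, most of them with means under 5, run from -0.56 to 0.55 with a median of 0.17, against 0.13 for all probe sets. The outlined probe sets lean to positive r with a median of 0.40.

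The probe sets most like B2m 1449289_a_at in this sense were outside the pathway. The members, whose highest r was 0.55, were left out of this ranking beforehand. Among the other probe sets with a single gene and a mean of at least 5, the 10 with the highest r over the 10 arrays were Nfx1 (0.983), Wbp11 (0.980), Ensa (0.973), Dcun1d5 (0.965), Rmdn3 (0.963), Fmn2 (0.962), Ik (0.959), Pole4 (0.959), Mtch2 (0.955) and Fuca1 (0.955). Their r with the other B2m probe set was between -0.47 and -0.09, so the likeness held for 1 of the 2 B2m probe sets. Nfx1, for example, read 8.52 on wild type 2 and 8.44 on null 5 and between 7.78 and 8.28 on the other 8 arrays.

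Markers of the cell types a cortex sample can hold were summed on the linear scale, and none of them was at 0. Those of cortical neurons, which check the labelled tissue, summed to 191 to 330 on the wild type arrays and 160 to 299 on the null arrays (3 of 5 measured, 2 with means under 5). Neuronal markers lay between 24500 and 28600 on the wild type arrays and between 22500 and 26900 on the null arrays, and oligodendrocyte markers between 20200 and 26600 and between 18800 and 20900. Rbfox3 (-0.37, SE 0.12) and Nefl (-0.20, SE 0.07) of 5 measured neuronal markers and Mbp (-0.23, SE 0.07) of 5 oligodendrocyte markers were lower on the null arrays at an unadjusted p under 0.05 in limma, and 0 genes of the other 9 marker lists passed. Over all probe sets 2.43% were lower and 1.24% higher by this rule. Of the cell types in which class I is known to be high, microglia summed to 2280 to 2700 and 2240 to 3080 (11 of 12 markers measured, 5 with means under 5) and endothelium to 484 to 558 and 464 to 547 (9 of 10 measured, 6 under 5). Lymphocyte markers summed to 47.4 to 63.1 and 55.4 to 60.5, with 6 of 7 measured genes under a mean of 5. Choroid plexus markers were the most uneven between mice, at 48.0 to 244 and 49.2 to 124, with the highest sum on wild type 1. The ranges overlapped between labels for every one of these lists, and their part in the B2m and heavy chain differences was not tested.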

How the data were processed

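The deposited log2 values were produced by the authors with GC-RMA (GCRMA in the submitters' processing notes, version not given in the sources used here), which corrects background from the GC content of the probes and then normalizes the arrays and summarises each probe set. Groups were taken from the labels. The tests covered 22626 probe sets, without 64 controls; 20380 had 1 gene in the platform annotation of 2016, 691 several and 1555 none, and 20351 of the 20380 were matched to the RefSeq annotation of GRCm38.p6. The members and lists were chosen with earlier results of these data known.

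Differences (labelled null minus labelled wild type) and relations to B2m were fitted with lmFit and eBayes of limma 3.58.1 (R 4.3.3) over all probe sets, with Benjamini-Hochberg adjustment and a threshold of 0.05. The fit was tested on simulated data. A gene of a list was read by the probe set with the highest mean over all arrays. The relation to B2m was also tested by exact permutation of all 14400 orders within labels (two-sided), for Pearson's r and for Spearman's rho on ranks within labels. The p-values set a difference or relation against the spread between individual mice and, outside the replicate block, take no account of littermate pairs. With 5 arrays for each label, the number of arrays limits the precision. Named genes were all members, up to 4 of each list with the smallest p, and the 10 with the highest r with B2m; Calr, Canx and Pdia3, Rbfox3, Nefl and Mbp were named after their values were seen. Alternatives were 2 other normalizations, a filter at a mean of 5, a floor at 4, other variance models, array weights, the methods' t-test, a replicate block, other probe set rules and leaving out arrays.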

Additional observations from a re-analysis of the deposited data

Results flagged for a closer look

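Among 116 groups of 5 arrays (58 probe sets named in the text, each under both labels), 11 held an array far from the others, with a gap to the nearest of the others above 0.71 of the group's range. Chance flags about 1 in 20 groups, which is 5.8 here. The 58 probe sets are no random set, since some were picked for a small p or for a high r with B2m. The heavy chain probe sets can also read the same transcripts, so nothing is read from 11 against 5.8. Wild type 3 accounts for 4 of the 11. It read 7.91 on H2-D1 1451784_x_at, where the other wild type arrays ran from 7.49 to 7.56, 6.35 on H2-D1 1425545_x_at (5.78 to 5.92), 2.27 on H2-D1 1426324_at (1.91 to 1.95) and 3.86 on H2-K1 1451931_x_at (3.34 to 3.40). Null 5 accounts for 3. It read 8.34 on Fmn2 1450064_at, where the other null arrays ran from 7.55 to 7.76, 6.10 on Pole4 1423372_at (5.67 to 5.77) and 2.85 on Stat2 1450403_at (3.09 to 3.19). Null 2 read 2.40 on H2-D1 1451683_x_at (2.65 to 2.75). Tap1 1420274_at was set apart in both groups, at 1.29 on wild type 2 and at 1.02 on null 1, and wild type 5 read 1.99 on Ciita 1421210_at (2.14 to 2.19). Of these probe sets, H2-D1 1451784_x_at and 1425545_x_at, Fmn2 and Pole4 had means of at least 5.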

How the results depend on the processing

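The B2m difference of -0.33 stayed negative under all 20 alternatives, from -0.43 to -0.26 with 1 array left out, -0.27 under quantile normalization, -0.37 without both null replicate 5 and wild type replicate 2 (an alternative chosen after seeing the data), and -0.09 with probe set 1452428_a_at. Of 27 other single differences, 26 kept their sign under every alternative run, Tapbp 1421812_at being the exception (-0.02 to 0.08). Leaving out 1 array moved 18 of the 27 by over 1.5 times. The count of 0 probe sets after adjustment held under all 19 alternatives.

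Whether the replicate numbers mark the littermate pairs could not be settled. Deviations of same-numbered arrays correlated between 0.05 and 0.46, with 1 of 5 over 0.1. Of the wild type arrays, 1 correlated best with its own number. Weak correlation over all probe sets cannot exclude that same-numbered arrays are littermates. With the replicate block the B2m difference was -0.33, 1 member passed at an unadjusted p under 0.05 in place of 2, and the relation to B2m called 0 probe sets in place of 288.

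The 2 members at an unadjusted p under 0.05 were 1 without dim probe sets and 1 with a floor at 4, and 1 to 4 with 1 array left out (4 without null 1; 1 without wild type 3, null 2, null 3 or null 4). The 2 pathway genes were 1 with median centring, without dim probe sets, with array weights and without both arrays, and 0 to 2 with 1 array left out (0 without null 4). The interferon gene was lost (0) without dim probe sets and with a floor, array weights gave 2, and leaving out 1 array gave 0 to 1 (0 without wild type 3 or null 4). Over all probe sets, the 281 higher were 524 under quantile normalization, 47 without dim probe sets, 87 with a floor, 597 with array weights, 588 without both arrays and 200 to 448 with 1 array left out (448 without wild type 2). The 549 lower were 307 without dim probe sets, 358 with a floor, 852 with array weights, 986 without both arrays and 395 to 1276 with 1 array left out (1276 without null 5, 917 without wild type 1). The 288 related to B2m were 9 with median centring, 0 under quantile normalization, 771 without dim probe sets, 154 with an intensity trend and robust prior, 0 with probe set 1452428_a_at, 0 with the first component, 0 without both arrays, and 0 (without null 5) to 613 (without null 1) with 1 array left out; no member was among them in any of the 19. Without dim probe sets fewer were tested; for the other moves the cause was not tested. Of 9 members, 6 had means under 5, where small changes cannot be measured.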
